A study of Mus musculus with 82 samples.

Results

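Lag3, Havcr2, Tigit, Cd226, Cd96 and Cd160 encode surface receptors that tune T cell and natural killer cell responses, and their transcripts were followed here in ovalbumin-specific T cells after pGal-OVA, plain ovalbumin (OVA) or saline. pGal-OVA is ovalbumin carrying a synthetic glycosylation. The 6 genes were taken by name from the 3 deposited count tables, which share 21823 genes. Each was described in every experiment, cell type and treatment. In mice given antigen the day after transfer, Lag3 rose in OT-I cells with pGal-OVA (log2 fold change over saline 3.05) and with OVA (3.58). In OT-II cells of these mice Lag3 rose with pGal-OVA over OVA (1.73) and over saline (2.55), and Cd226 rose over saline (0.63). The Lag3 call over OVA and the Cd226 call were each lost in 7 of 14 fits with 1 library left out. In OT-II cells of mice that had been immunized earlier, Tigit rose with OVA over saline (2.46). In OT-I cells of mice given antigen the day after transfer, Tigit (1.20) and Cd160 (0.92) also rose with OVA over saline. This Tigit call was lost in 6 of 15 fits with 1 library left out. With saline, Cd160 was higher in OT-I than in OT-II cells in both experiments. Havcr2 was so in the immunized mice, and Cd226 and Cd96 in the mice not immunized earlier. The 2 cell type calls in immunized mice rest on libraries whose Cd4 and Cd8a transcripts matched their label. No difference of Cd96 between treatments was called.

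As background, LAG-3 is a CD4-related protein that binds MHC class II and other ligands and restrains T cell activation. TIM-3, the product of Havcr2, binds galectin-9, CEACAM1 and other partners and marks effector and chronically stimulated T cells. TIGIT and CD226 compete for the ligands CD155 (Pvr) and nectin-2, TIGIT as an inhibitory and CD226 as a costimulatory receptor, and CD96 is a further receptor for CD155. CD160 binds HVEM, the product of Tnfrsf14, which is also a ligand of BTLA, and is found on CD8 T cells and natural killer cells.

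The OT-I cells (CD8, ovalbumin-specific) and OT-II cells (CD4, ovalbumin-specific) were both transferred into every recipient, and recipients were wild-type mice. In the prophylactic experiment (C57BL/6 per the labels) pGal-OVA, 5 µg of plain OVA or saline was given 1 day after transfer, and each library pooled 3 mice. In the therapeutic experiment recipients had first been immunized under the skin with OVA in complete Freund's adjuvant on the day after transfer and were given pGal-OVA, OVA or saline about a month later, with 1 mouse per library; the strain label of these libraries is a different number in each and is not interpreted. Cells were sorted from pooled spleen and lymph nodes 4 days after antigen in both experiments. The amount of pGal-OVA is given in one place as 5 µg and in another as the molar equivalent of the OVA, so the antigen mass in the pGal groups is not settled. The groups compared were pGal, OVA and saline in OT-I cells (5, 5 and 5 prophylactic libraries) and in OT-II cells (5, 4 and 5), and in the therapeutic experiment 10, 10 and 8 OT-I and 10, 8 and 7 OT-II libraries as labelled. Library totals ran between 21.2 and 68.2 M estimated counts. Havcr2 had counts in 74 of 82 libraries, and the other 5 genes had counts in all 82.

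Cd4 and Cd8a transcripts checked the labelled cell type. All 29 prophylactic libraries carried the coreceptor of their label. Of the 53 therapeutic libraries, 11 carried the coreceptor of the other cell type: OT-I pGal 5 and 7, OVA 6 and 8 and saline 3 and 6, and OT-II pGal 5 and 7, OVA 6 and 8 and saline 3. For 5 treatment numbers (pGal 5 and 7, OVA 6 and 8, saline 3) both the OT-I and the OT-II library thus went against the label, and whether labels or tubes were exchanged was not tested. Therapeutic values are given for the 42 libraries that matched their label (OT-I pGal 8, OVA 8, saline 6; OT-II pGal 8, OVA 6, saline 6), and results that rest on them are also given for all 53 libraries as labelled. Among the prophylactic libraries 4 were rich in B cell transcripts, with 8 B cell markers summing to over 10 times the median of their experiment and cell type, and are called B cell-rich here: OT-II pGal 3 of batch 1 (3355 CPM, normalised counts per M), OT-II OVA 2 of batch 2 (6224 CPM), OT-I saline 1 of batch 2 (1457 CPM) and OT-II saline 1 of batch 2 (687 CPM). In the other prophylactic libraries the sum did not pass 523 CPM. The cut is relative to each experiment, and B cell transcripts were higher in the therapeutic libraries, where none was flagged. Group medians of the sum were 380 to 451 CPM in matching therapeutic libraries (176 to 746 CPM over libraries) and 62.0 to 107 CPM in prophylactic groups. Myeloid markers summed to 3084 CPM in OT-II pGal 3 of batch 1 and 1957 CPM in OT-II OVA 2 of batch 2. OT-I pGal 2 and OVA 1 of batch 1 also held Cd4 at 206 and 161 CPM beside Cd8a.

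**Figure D1:**
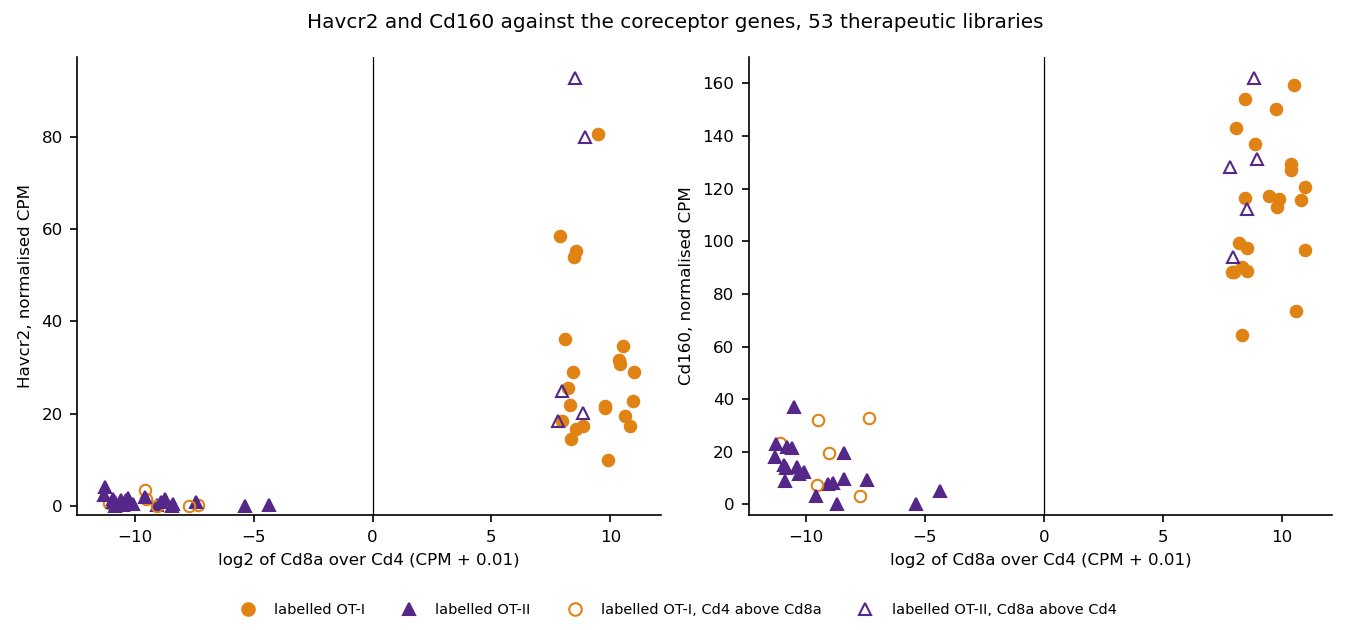
Havcr2 (left) and Cd160 (right) in the 53 therapeutic libraries, in normalised CPM, against the log2 ratio of Cd8a over Cd4 with 0.01 CPM added to each. Filled points match their labelled cell type and open points are the 11 libraries that go against it. The open points lie with the cell type of their coreceptor: the 6 labelled OT-I have Havcr2 between 0 and 3.45 CPM, and the 5 labelled OT-II have 18.4 to 92.8 CPM.

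In GENCODE M21 on GRCm38 the members lie on 5 chromosomes. Lag3 (ENSMUSG00000030124) is at chr6:124904361-124911705 on the minus strand, 16139 bases from Cd4. Havcr2 (ENSMUSG00000020399) is at chr11:46454935-46481255 on the plus strand. Tigit (ENSMUSG00000071552, chr16:43648867-43664146) and Cd96 (ENSMUSG00000022657, chr16:46035657-46120251) share chromosome 16, both on the minus strand. Cd226 (ENSMUSG00000034028) is on the plus strand. Cd160 (ENSMUSG00000038304, chr3:96798763-96829351, minus strand) overlaps the first bases of Pdzk1 on the other strand by 68 bases, so reads from that stretch could belong to either gene.

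The promoters of Havcr2 and Cd160, which differed by cell type, and of Tigit, which differed by treatment, are printed from RefSeq on GRCm38.p6, each with 250 bases before and 50 bases after the start of transcription, 5′ to 3′ on the gene's strand. Capitals mark matches to the RUNX letters TGTGGT or ACCACA, the motif of the family of Runx3, the factor of the CD8 lineage.
Havcr2, chr11:46454681-46454980, plus strand: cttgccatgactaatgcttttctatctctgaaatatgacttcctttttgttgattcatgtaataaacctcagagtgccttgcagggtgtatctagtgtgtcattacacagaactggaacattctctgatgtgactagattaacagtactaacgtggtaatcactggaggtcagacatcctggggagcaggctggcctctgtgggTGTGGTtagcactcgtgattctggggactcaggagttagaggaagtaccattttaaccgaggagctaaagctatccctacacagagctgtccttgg
Tigit, chr16:43664135-43664434, minus strand: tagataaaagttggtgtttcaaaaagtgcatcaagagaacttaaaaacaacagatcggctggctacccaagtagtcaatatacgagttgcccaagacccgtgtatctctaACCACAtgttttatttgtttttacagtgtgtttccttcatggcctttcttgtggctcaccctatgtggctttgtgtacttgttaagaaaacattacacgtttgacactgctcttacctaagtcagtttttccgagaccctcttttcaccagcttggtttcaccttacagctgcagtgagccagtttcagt
Cd160, chr3:96829302-96829601, minus strand: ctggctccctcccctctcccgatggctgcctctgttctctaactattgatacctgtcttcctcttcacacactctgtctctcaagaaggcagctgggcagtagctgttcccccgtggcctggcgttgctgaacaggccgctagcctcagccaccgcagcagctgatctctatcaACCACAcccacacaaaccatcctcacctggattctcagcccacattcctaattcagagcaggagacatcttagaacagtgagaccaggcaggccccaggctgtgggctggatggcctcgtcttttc

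The letters TGTGGT or ACCACA were found in 16.8% of 32851 mouse promoters of the same length. In Havcr2 the match began 46 bases before the start and overlapped a T-box match (GGTGTG or CACACC, in 19% of promoters) at 48 bases. In the Cd160 entry printed, a RUNX match at 76 bases likewise overlapped a T-box match at 74 bases. A second RefSeq entry of Cd160, not printed, had a RUNX match at 101, NFAT core letters at 145 and a T-box match at 189 bases, and its RUNX and T-box matches did not overlap. Tigit had its RUNX match at 140 bases and NFAT core letters (GGAAA or TTTCC, in 61.3% of promoters) at 110 and 13 bases before the start, and it held no T-box match. Havcr2 also held an AP-1 match (TGANTCA, in 7.81% of promoters) at 200 bases. The Cd96 entry, not printed, held 2 RUNX matches, 5 matches to the NFAT core and no T-box match. Cd96 was also higher in OT-I than in OT-II cells in prophylactic saline. Promoters are not given for Lag3 and Cd226, which also had calls. These are matches of letters in a window, not observed binding.

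Called genes were those with an adjusted p under 0.05 in edgeR's quasi-likelihood test with Benjamini-Hochberg adjustment over all genes. The 3 comparisons within a cell type share their libraries, so their results are not independent of each other. In prophylactic OT-I cells 0 of the 6 receptor genes were called for pGal against OVA, where the share of all genes called was 0% (420 genes and 0 of the 6 had an unadjusted p under 0.05, and DESeq2 called 2 genes and 0 of the 6). Against saline, pGal called 1 of the 6 (Lag3), with 3.35% of all genes called, and OVA called 3 (Lag3, Tigit and Cd160), with 5.39% of all genes called. All 4 calls were upward. In prophylactic OT-II cells pGal called 1 gene against OVA (Lag3, with 1.87% of all genes called) and 2 against saline (Lag3 and Cd226, with 11.7%), all upward. OVA against saline called 0 of the 6 in OT-II cells, with 0.163% of all genes called (1 of the 6 and 1034 genes had an unadjusted p under 0.05, and DESeq2 called 0 of the 6 and 176 genes).

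In the therapeutic experiment Tigit in OT-II cells for OVA against saline was the only call among the 6 genes in the 6 treatment comparisons, where 1.54% of all genes were called. For OT-I cells 0 of the 6 were called in the 3 comparisons, with shares of all genes of 0% for pGal against OVA, 0% for pGal against saline and 0.686% for OVA against saline. At an unadjusted p under 0.05 the counts were 1, 1 and 2 of the 6 (418, 952 and 1862 genes in all), and DESeq2 called 0 of the 6 in each (2, 23 and 429 genes in all). For OT-II cells 0 were called for pGal against OVA (0% of all genes) and for pGal against saline (0.00702%), with 2 and 1 of the 6 at an unadjusted p under 0.05 (1013 and 1280 genes in all) and 0 of the 6 called by DESeq2 (41 and 199 genes in all). The median log2 fold change of the 6 genes, in the order pGal over OVA, pGal over saline and OVA over saline, was -0.15, 0.63 and 1.06 in prophylactic OT-I cells and 0.05, 0.55 and 0.51 in prophylactic OT-II cells. In therapeutic cells it was 0.01, 0.16 and 0.24 for OT-I and -0.28, 0.37 and 0.46 for OT-II. The medians over all genes tested lay between -0.065 and 0.072 in these 12 comparisons.

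Whether a treatment difference itself differed between cell types or experiments was tested in 12 interactions, and 6 single-gene calls resulted, given with Lag3 and Tigit below. Leaving out libraries in the interactions was chosen after seeing the data. OT-II minus OT-I in the prophylactic experiment, 1 of the 6 genes was called in each of the 3 comparisons. The shares of all genes called were 0.505% for pGal over OVA, 1.17% for pGal over saline and 0.0337% for OVA over saline. In the therapeutic experiment 0 of the 6 were called for pGal over OVA (0% of all genes called), pGal over saline (0%) and OVA over saline (0.121%), with 2, 0 and 3 of the 6 at an unadjusted p under 0.05 (753, 648 and 1490 genes in all). Therapeutic minus prophylactic, 0, 1 and 1 of the 6 were called in OT-I cells (0%, 0.110% and 0.266% of all genes) and 0, 1 and 0 in OT-II cells (0.232%, 0.800% and 0.0967% of all genes). In the 3 of these with 0 calls, 0 (OT-I, pGal over OVA), 1 (OT-II, pGal over OVA) and 2 (OT-II, OVA over saline) of the 6 had an unadjusted p under 0.05 (283, 1258 and 1180 genes in all). DESeq2 was not run for interactions.

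**Figure D2:**
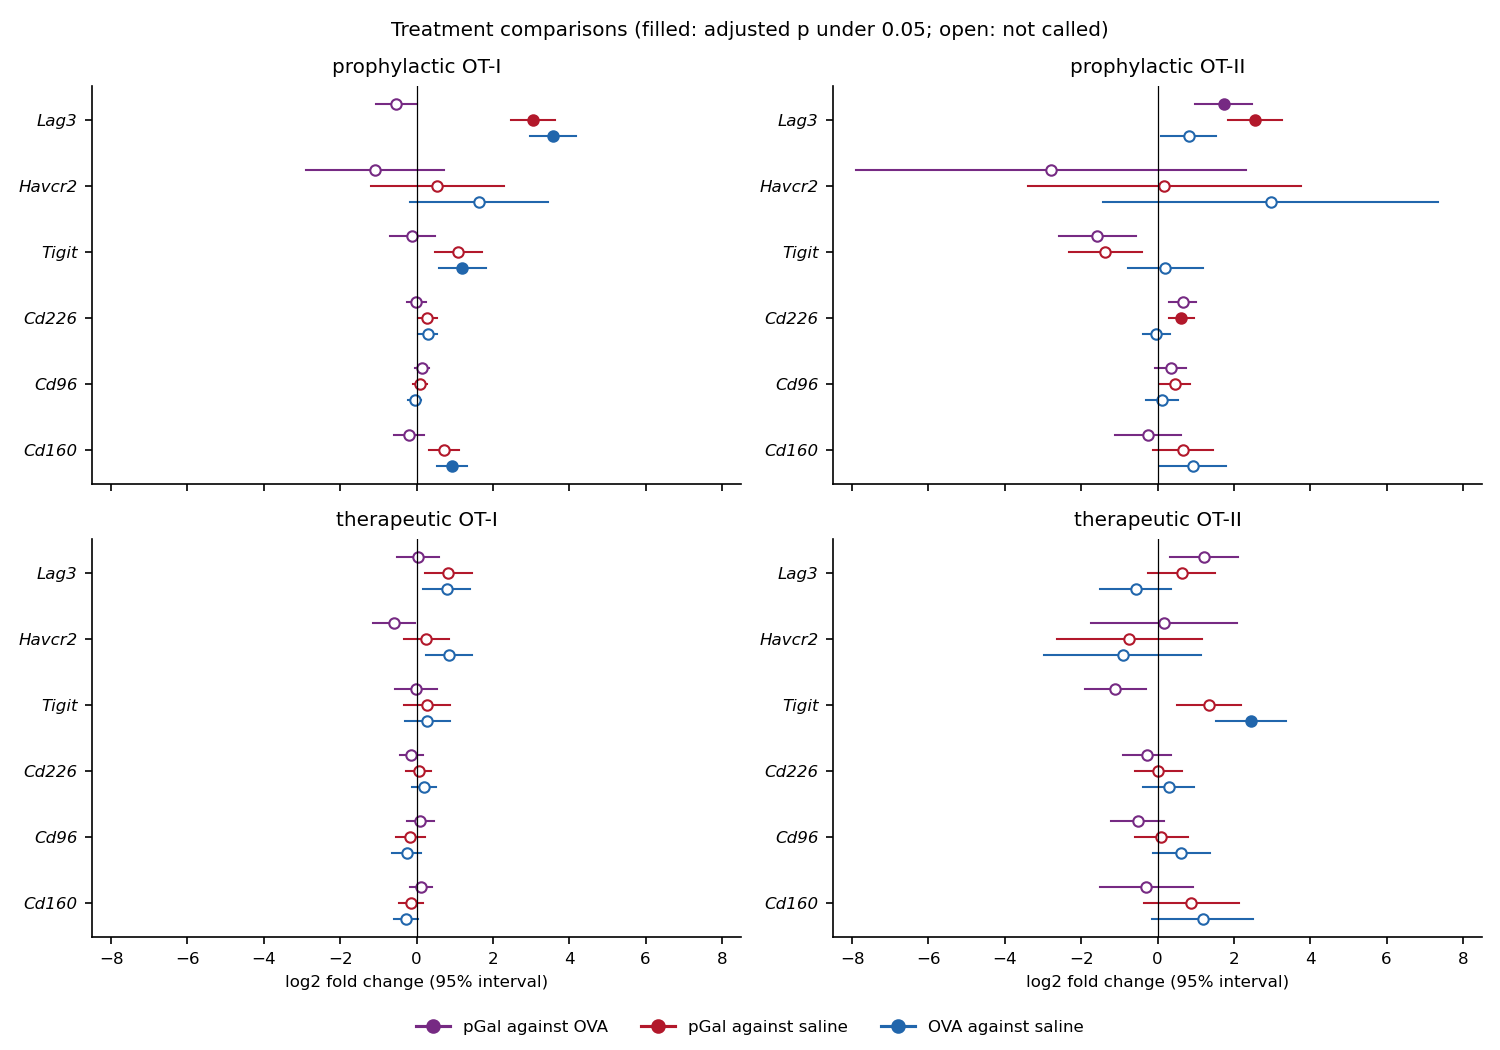
Log2 fold changes of the 6 genes in the 12 treatment comparisons, with 95% intervals from edgeR's quasi-likelihood fits. Filled points were called at an adjusted p under 0.05 and open points were not. Lag3 in the prophylactic panels (3.05 and 3.58 over saline in OT-I, 2.55 for pGal over saline in OT-II) and Tigit in therapeutic OT-II cells (2.46 for OVA over saline) stand out.

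Lag3 was low in prophylactic OT-I cells given saline and rose with both forms of the antigen. In pGal libraries it was 2.54, 4.42 and 2.94 CPM in batch 1 and 7.76 and 7.34 CPM in batch 2. In OVA libraries it was 5.42, 5.21 and 8.43 CPM in batch 1 and 8.03 and 5.70 CPM in batch 2. In saline libraries it was 0.474, 0.532 and 0.360 CPM in batch 1 and 0.965 and 0.581 CPM in batch 2. Every antigen library was above every saline library, while the pGal and OVA libraries overlapped. These are bulk libraries, so fewer cells with the transcript and less transcript per cell cannot be told apart here or in any result below. Lag3 was the gene with the smallest p of 13802 in both comparisons with saline. Its log2 fold change was 3.05 (SE 0.296, adjusted p = 2.50e-04) for pGal over saline and 3.58 (SE 0.303, adjusted p = 3.48e-05) for OVA over saline, by edgeR's quasi-likelihood test with Benjamini-Hochberg adjustment. Within batches the pGal value was 2.85 (adjusted p = 0.00483) in batch 1 and 3.27 (adjusted p = 0.0290) in batch 2, and the OVA value was 3.82 (adjusted p = 1.80e-04) in batch 1 and 3.15 (adjusted p = 0.0951, not called) in batch 2. For pGal over OVA it was -0.53 (95% interval -1.06 to 0.01, adjusted p = 1). Cell cycle transcripts moved with Lag3, with 10 of 12 rising over saline with pGal (3.35% of all genes called) and 11 of 12 with OVA (5.39%). They summed to between 242 and 721 CPM with pGal, between 349 and 713 CPM with OVA and between 175 and 294 CPM with saline, and their part in the Lag3 result was not tested.

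Lag3 in prophylactic OT-II cells was higher with pGal than with either OVA or saline. In pGal libraries it was 7.15, 7.68 and 3.99 CPM in batch 1 and 2.40 and 4.21 CPM in batch 2. The OVA libraries had 1.38 and 1.25 CPM in batch 1 and 1.60 and 1.19 CPM in batch 2. The saline libraries had 1.20, 0.854 and 1.22 CPM in batch 1 and 0.625 and 0.451 CPM in batch 2. The 5 pGal libraries were above all OVA and saline libraries, and the OVA and saline libraries overlapped. The log2 fold change for pGal over saline was 2.55 (SE 0.359, adjusted p = 6.11e-04 by edgeR's quasi-likelihood test with Benjamini-Hochberg adjustment), with 2.50 (adjusted p = 0.00540) in batch 1 and 2.60 (adjusted p = 0.301) in batch 2. For pGal over OVA it was 1.73 (SE 0.385, adjusted p = 0.0380), with 2.24 (adjusted p = 0.0387) in batch 1 and 1.22 (adjusted p = 0.609) in batch 2. Without the filter on low counts the value against OVA was 1.72 (adjusted p = 0.0504). The call was also lost when OVA 2 or 3, pGal 1 or 2 or saline 2 or 3 of batch 1, or pGal 2 of batch 2, was left out (log2 fold change 1.55 to 1.75, adjusted p = 0.0581 to 0.155). Without the B cell-rich libraries the fold change was 2.67 (adjusted p = 0.00133) for pGal over saline and 1.88 (adjusted p = 0.0348) for pGal over OVA. For OVA over saline Lag3 had a log2 fold change of 0.81 (unadjusted p = 0.0458, adjusted p = 0.662).

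The difference in Lag3 between cell types was tested as an interaction across both. OT-II minus OT-I, the log2 fold change for pGal over OVA differed by 2.33 (SE 0.537, adjusted p = 0.0441 by edgeR's quasi-likelihood test with Benjamini-Hochberg adjustment), with 0.505% of all genes called. For OVA over saline it differed by -2.89 (SE 0.544, adjusted p = 0.0444), with 0.0337% of all genes called. Both calls turned on single libraries. The call for pGal over OVA was kept in 9 of 29 leave-outs (OT-I pGal 1 and 2 and saline 2 of batch 2; OT-II pGal 3 and saline 1 and 3 of batch 1; OT-II pGal 1 and saline 1 and 2 of batch 2), and over all leave-outs the difference ran between 2.14 and 2.58 with an adjusted p up to 0.116. The call for OVA over saline was kept in 8 of 29 (OT-I pGal 1 of batch 1; OT-I pGal 1 and saline 1 of batch 2; OT-II pGal 1 and 2 of batch 1; OT-II pGal 1 and saline 1 and 2 of batch 2), with a difference between -3.14 and -2.74 and an adjusted p up to 0.134. Without the B cell-rich libraries the differences were 2.33 (adjusted p = 0.0339) and -3.18 (adjusted p = 0.0586). Without the OT-I libraries holding Cd4 they were 2.33 (adjusted p = 0.0830) and -2.94 (adjusted p = 0.0811), and without the filter on low counts 2.32 (adjusted p = 0.0548) and -2.89 (adjusted p = 0.0525). With same-numbered OT-I and OT-II libraries as a replicate block they were 2.37 (adjusted p = 0.170) and -2.88 (adjusted p = 0.336). Neither was called in that fit.

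**Figure D3:**
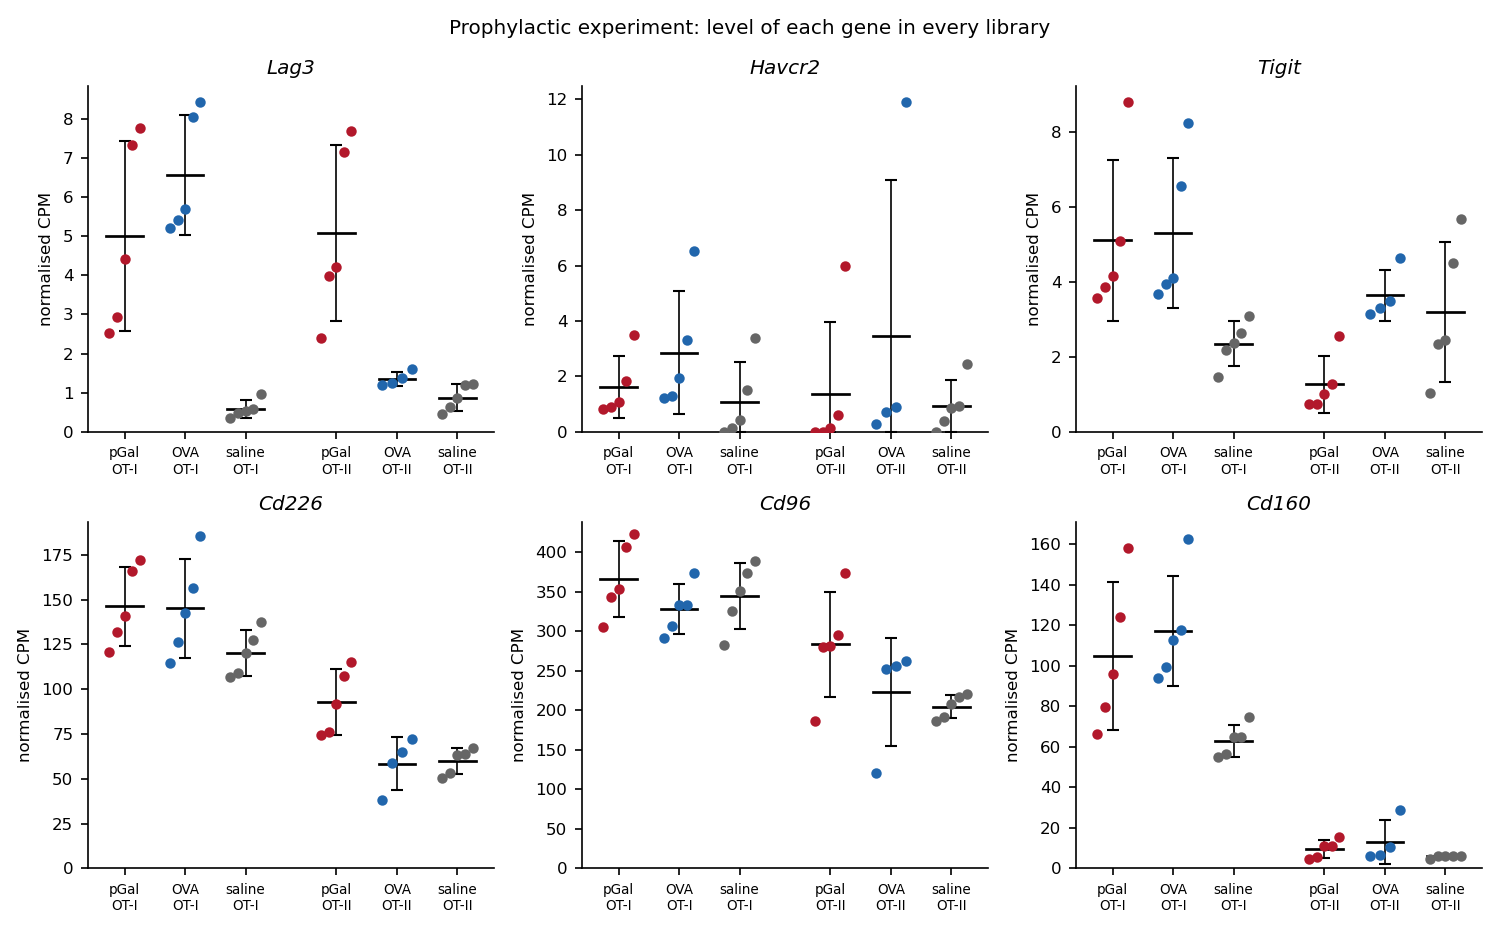
Normalised CPM of the 6 genes in each of the 29 prophylactic libraries, with pGal, OVA and saline for OT-I and then OT-II cells; bars are the mean and SD, and the lower bar stops at 0. Lag3 separates both antigen groups from saline in OT-I cells (5.00 and 6.56 against 0.582 CPM on average) and pGal from OVA and saline in OT-II cells (5.09 against 1.35 and 0.869 CPM).

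In therapeutic cells Lag3 was higher overall and its treatment groups overlapped. In OT-I cells the lowest, median and highest libraries were 14.6, 18.9 and 59.2 CPM with pGal, 17.3, 22.4 and 25.8 CPM with OVA and 5.99, 10.1 and 25.7 CPM with saline. In OT-II cells they were 5.43, 10.3 and 20.7 CPM with pGal, 2.56, 3.58 and 12.4 CPM with OVA and 1.37, 8.16 and 12.6 CPM with saline. The saline OT-I cells thus held more Lag3 than any prophylactic group on average (12.4 ± 7.0 CPM, SD, n = 6, against at most 6.56 ± 1.54 CPM, n = 5), but experiment, count table and cell handling cannot be told apart. For OT-I cells the log2 fold change was 0.83 for pGal over saline (unadjusted p = 0.0133, adjusted p = 0.661 by edgeR's quasi-likelihood test with Benjamini-Hochberg adjustment) and 0.79 for OVA over saline (unadjusted p = 0.0175, adjusted p = 0.274). For OT-II cells it was 1.21 for pGal over OVA (unadjusted p = 0.0143, adjusted p = 0.672), the same direction as in the prophylactic experiment but not called. With all libraries as labelled these 3 values were 0.76 (adjusted p = 0.906), 0.72 (adjusted p = 0.625) and 0.73 (adjusted p = 0.491).

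Lag3 differences against saline in OT-I cells were smaller in the therapeutic than in the prophylactic experiment. Therapeutic minus prophylactic, the log2 fold change differed by -2.15 (SE 0.448, adjusted p = 0.0320 by edgeR's quasi-likelihood test with Benjamini-Hochberg adjustment; 0.110% of all genes called) for pGal over saline and by -2.76 (SE 0.451, adjusted p = 9.73e-04; 0.266% of all genes called) for OVA over saline. With all libraries as labelled the differences were -2.27 (adjusted p = 1) and -2.86 (adjusted p = 0.314), so both calls rest on leaving out the libraries that go against their label. The pGal call was also lost in 7 of 15 leave-outs of prophylactic libraries (pGal 2 and saline 1, 2 and 3 of batch 1, and pGal 1 and 2 and saline 2 of batch 2), where the adjusted p was between 0.0570 and 0.111. Without the OT-I libraries holding Cd4 the pGal value was -2.07 (adjusted p = 0.0865). The OVA call was kept in all 15. For OT-II cells the difference for pGal over saline was -1.89 (adjusted p = 0.219).

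Havcr2 was high in therapeutic OT-I cells. Its lowest, median and highest libraries there were 16.6, 23.7 and 55.2 CPM with pGal, 14.4, 33.2 and 80.7 CPM with OVA and 9.99, 21.4 and 36.2 CPM with saline. In therapeutic OT-II cells no matching library passed 4.12 CPM, and the group means were 0.883 ± 0.850 CPM with pGal (n = 8), 0.788 ± 0.662 CPM with OVA (n = 6) and 1.46 ± 1.47 CPM with saline (n = 6). The 22 OT-I libraries were all above the 20 OT-II libraries. In the prophylactic experiment Havcr2 was low in both cell types, with group means between 0.922 and 3.45 CPM, and its highest libraries were OT-II OVA 2 of batch 2 (11.9 CPM) and OT-II pGal 3 of batch 1 (5.99 CPM), both rich in B cell and myeloid transcripts, and OT-I OVA 2 of batch 1 (6.52 CPM). Treatment differences in Havcr2 were not called: in therapeutic OT-I cells its log2 fold change was -0.59 for pGal over OVA (unadjusted p = 0.0442, adjusted p = 1) and 0.85 for OVA over saline (unadjusted p = 0.0104, adjusted p = 0.221), by edgeR's quasi-likelihood test with Benjamini-Hochberg adjustment. As labelled these were -0.59 (adjusted p = 1) and 0.95 (adjusted p = 0.750).

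In the 11 libraries that go against their label, Havcr2 and Cd160 had the levels of the cell type that the coreceptor showed. Havcr2 ran between 0 and 3.45 CPM (median 0.340) in the 6 labelled OT-I and between 18.4 and 92.8 CPM (median 25.0) in the 5 labelled OT-II. Cd160 ran between 3.25 and 32.9 CPM (median 21.4) in the 6 labelled OT-I and between 94.2 and 162 CPM (median 128) in the 5 labelled OT-II. Lag3 and Tigit overlapped between them. Lag3 was between 0.642 and 12.8 CPM in those labelled OT-I and between 9.61 and 24.4 CPM in those labelled OT-II, and Tigit was between 7.07 and 97.1 CPM in those labelled OT-I and between 9.72 and 28.7 CPM in those labelled OT-II.

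**Figure D4:**
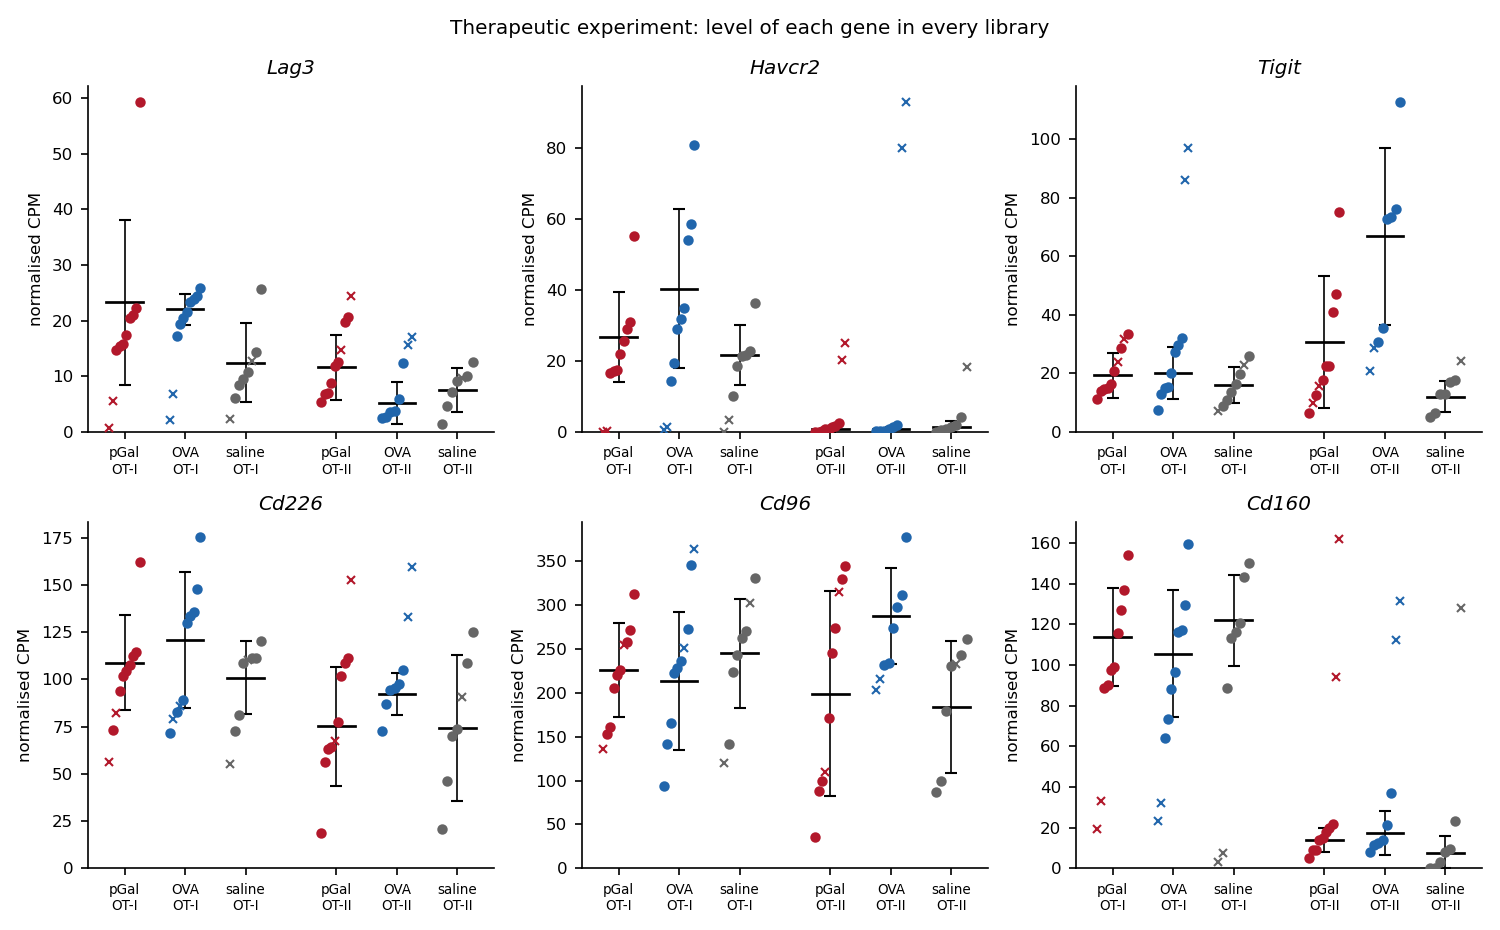
Normalised CPM of the 6 genes in each of the 53 therapeutic libraries, with pGal, OVA and saline for OT-I and then OT-II cells. Crosses are the 11 libraries that go against their label; bars are the mean and SD over the matching libraries, and the lower bar stops at 0. Tigit in OT-II cells averages 30.6 CPM with pGal, 66.9 CPM with OVA and 12.0 CPM with saline, and Havcr2 is at least 9.99 CPM in every matching OT-I library and at most 4.12 CPM in every matching OT-II library.

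Tigit, the inhibitory receptor of the CD155 axis, was highest in therapeutic OT-II cells given OVA. Its lowest, median and highest matching libraries were 6.45, 22.6 and 75.0 CPM with pGal, 30.7, 73.1 and 113 CPM with OVA and 5.01, 12.9 and 17.7 CPM with saline. All 6 OVA libraries were above all 6 saline libraries, and the pGal libraries overlapped both. The log2 fold change for OVA over saline was 2.46 (SE 0.466, 95% interval 1.55 to 3.37, adjusted p = 0.0105 by edgeR's quasi-likelihood test with Benjamini-Hochberg adjustment). It was between 2.24 and 2.60 in all leave-outs, with an adjusted p up to 0.0340. With libraries of the same number across treatments as a replicate block it was not called (adjusted p = 0.0703). With all libraries as labelled it was 2.04 (adjusted p = 0.0390), on means of 56.3 ± 32.2 CPM with OVA (n = 8) and 13.7 ± 6.6 CPM with saline (n = 7). For pGal it was 1.35 over saline (unadjusted p = 0.00449, adjusted p = 0.272) and -1.11 relative to OVA (unadjusted p = 0.0128, adjusted p = 0.672), and neither was called.

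Regulatory T cells are known to carry Tigit, so their transcripts are given beside it. In therapeutic OT-II cells the 5 genes of that list summed to a median of 76.5 CPM with pGal (39.2 to 145), 51.4 CPM with OVA (37.9 to 97.4) and 117 CPM with saline (44.4 to 125). Foxp3, the defining factor, had medians of 17.6 CPM with pGal, 6.66 CPM with OVA and 17.6 CPM with saline. For OVA over saline 2 of the 5 genes fell, Ikzf4 (log2 fold change -2.01, adjusted p = 0.0341) and Il2ra (-2.27, adjusted p = 0.0412), and 0 rose, by edgeR's quasi-likelihood test with Benjamini-Hochberg adjustment. In that comparison 1.54% of all genes were called, 87 upward and 132 downward. At most 1 of the 5 markers was at 0 in any of these libraries. The part of regulatory T cell transcripts in the Tigit result was not tested.

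In therapeutic OT-I cells Tigit differed little between treatments, with medians of 15.7 CPM with pGal (11.2 to 33.3), 17.8 CPM with OVA (7.40 to 32.1) and 15.1 CPM with saline (8.83 to 25.8). The difference between cell types for OVA over saline was 2.15 on the log2 scale, OT-II minus OT-I (unadjusted p = 3.38e-04, adjusted p = 0.112 by edgeR's quasi-likelihood test with Benjamini-Hochberg adjustment, 0.121% of all genes called), and it was not called. With same-numbered OT-I and OT-II libraries as a replicate block, chosen after seeing the data, it was called (2.40, adjusted p = 0.0188). In 3 of 4 alternatives it stayed uncalled.

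In the prophylactic experiment, where mice had no earlier immunization, Tigit was low and its pattern differed between cell types. In OT-I cells it was 4.17, 3.88 and 3.59 CPM in batch 1 and 5.10 and 8.82 CPM in batch 2 with pGal. With OVA it was 3.94, 8.23 and 4.12 CPM in batch 1 and 3.69 and 6.57 CPM in batch 2. With saline it was 3.09, 1.46 and 2.64 CPM in batch 1 and 2.19 and 2.38 CPM in batch 2. Every antigen library was above every saline library in OT-I cells. The log2 fold change was 1.20 for OVA over saline (SE 0.309, adjusted p = 0.0336 by edgeR's quasi-likelihood test with Benjamini-Hochberg adjustment) and 1.10 for pGal over saline (adjusted p = 0.0657, not called). The OVA value was 1.21 (adjusted p = 0.0781) in batch 1 and 1.18 (adjusted p = 0.341) in batch 2, and the pGal value was 0.71 (adjusted p = 0.678) in batch 1 and 1.60 (adjusted p = 0.140) in batch 2. The OVA call was lost in 6 of 15 leave-outs (OVA 2 and saline 2 and 3 of batch 1, and OVA 2 and saline 1 and 2 of batch 2), with a log2 fold change between 0.91 and 1.28 and an adjusted p between 0.0549 and 0.136. Leaving out the library rich in B cell transcripts, saline 1 of batch 2, gave 1.12 (adjusted p = 0.0826), and leaving out the OT-I libraries holding Cd4 gave 1.28 (adjusted p = 0.0513). DESeq2 called the pGal value (1.09, adjusted p = 0.00827).

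Tigit in prophylactic OT-II cells was lowest with pGal. It was 0.738, 1.28 and 2.55 CPM in batch 1 and 1.01 and 0.748 CPM in batch 2 with pGal. With OVA it was 4.63 and 3.13 CPM in batch 1 and 3.30 and 3.50 CPM in batch 2. With saline it was 4.51, 2.33 and 2.44 CPM in batch 1 and 1.03 and 5.68 CPM in batch 2. The pGal libraries were all below the OVA libraries, and they overlapped saline through pGal 3 of batch 1 and saline 1 of batch 2, both rich in B cell transcripts. The log2 fold change was -1.57 relative to OVA (SE 0.509, adjusted p = 0.142) and -1.37 relative to saline (SE 0.485, adjusted p = 0.0883), by edgeR's quasi-likelihood test with Benjamini-Hochberg adjustment, and neither was called. Without the B cell-rich libraries it was -1.99 (adjusted p = 0.0253) relative to OVA and -2.01 (adjusted p = 0.00724) relative to saline. Leaving out pGal 3 of batch 1 alone gave -1.77 (adjusted p = 0.0309) relative to saline, and leaving out saline 1 of batch 2 gave -1.57 (adjusted p = 0.0464). DESeq2 called both (-1.56, adjusted p = 0.0324, relative to OVA; -1.35, adjusted p = 0.0280, relative to saline). Within batches the value relative to saline was -1.02 (adjusted p = 0.242) in batch 1 and -1.94 (adjusted p = 0.458) in batch 2, and relative to OVA it was -1.33 (adjusted p = 0.258) in batch 1 and -1.98 (adjusted p = 0.543) in batch 2.

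For Tigit 2 interactions were called by edgeR's quasi-likelihood test with Benjamini-Hochberg adjustment. In the prophylactic experiment the log2 fold change for pGal over saline differed by -2.46 (SE 0.573, adjusted p = 0.0281), OT-II minus OT-I, with 1.17% of all genes called. Without the B cell-rich libraries it was -3.05 (adjusted p = 0.00138). With same-numbered OT-I and OT-II libraries as a replicate block it was -2.37 (adjusted p = 0.0721) and was not called. It ranged between -2.88 and -2.14 over 29 leave-outs and was lost in 9 of them (OT-I saline 2 and OT-II pGal 1 and saline 1 of batch 1; OT-I pGal 2 and saline 1 and 2 and OT-II pGal 1 and 2 and saline 2 of batch 2), with an adjusted p between 0.0506 and 0.0615. In OT-II cells the same fold change differed by 2.72 (SE 0.662, adjusted p = 0.0350), therapeutic minus prophylactic, with 0.800% of all genes called. With all libraries as labelled this was 2.32 (adjusted p = 0.206), without the filter on low counts 2.69 (adjusted p = 0.0549), and without the B cell-rich libraries 3.33 (adjusted p = 0.00946). It was lost in 6 of 14 leave-outs of prophylactic libraries (pGal 1 and 2 and saline 1 of batch 1, and pGal 1 and 2 and saline 2 of batch 2), where the adjusted p was between 0.0745 and 0.159.

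**Figure D5:**
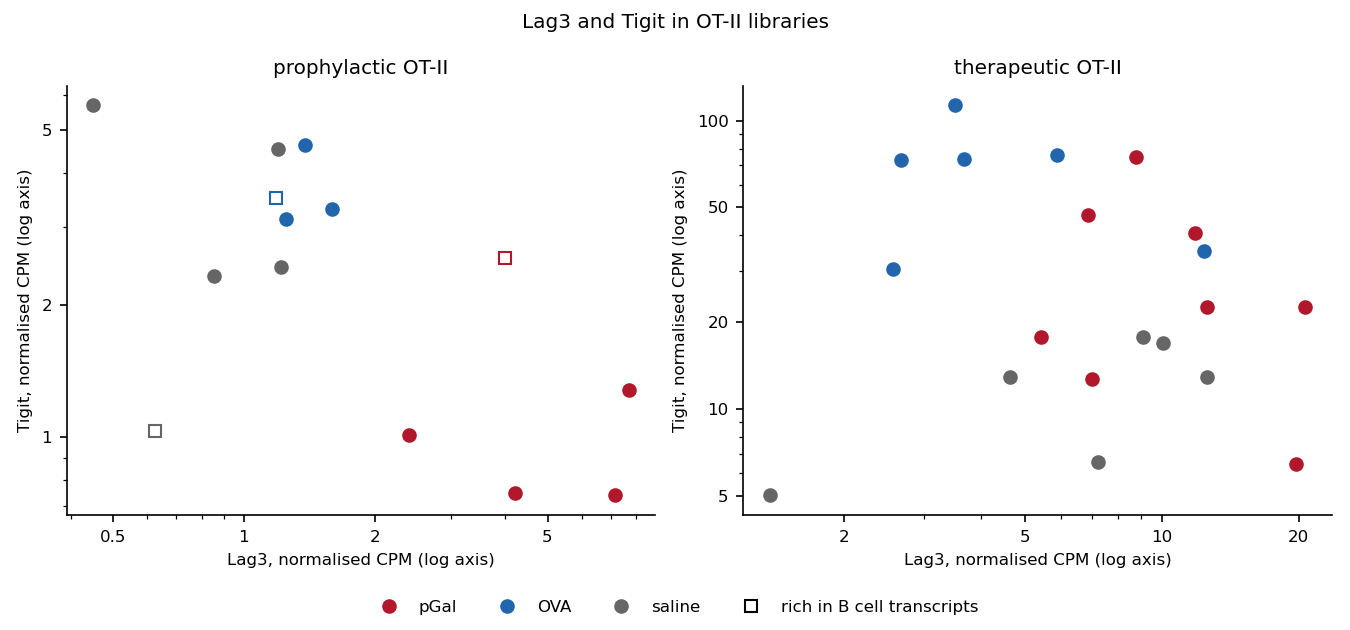
Lag3 (horizontal axis) and Tigit (vertical axis) in OT-II libraries, normalised CPM on log axes, for the prophylactic (left) and the matching therapeutic (right) experiment; colours are the treatments and open squares are prophylactic libraries rich in B cell transcripts. Prophylactic pGal libraries lie at high Lag3 (2.40 to 7.68 CPM) and low Tigit (0.738 to 2.55 CPM), while therapeutic OVA libraries lie at high Tigit (30.7 to 113 CPM).

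Cd226 (chr18:89176967-89272229), the costimulatory receptor that shares ligands with TIGIT, rose with pGal in prophylactic OT-II cells. It was 115, 107 and 75.9 CPM in batch 1 and 91.9 and 74.2 CPM in batch 2 with pGal. With OVA it was 65.0 and 58.7 CPM in batch 1 and 72.0 and 38.1 CPM in batch 2. With saline it was 53.3, 63.8 and 50.7 CPM in batch 1 and 67.4 and 63.5 CPM in batch 2. All 5 pGal libraries were above all OVA and all saline libraries. For pGal over saline the log2 fold change was 0.63 (SE 0.170, adjusted p = 0.0293 by edgeR's quasi-likelihood test with Benjamini-Hochberg adjustment), with 0.81 (adjusted p = 0.0152) in batch 1 and 0.33 (adjusted p = 0.669) in batch 2. For pGal over OVA it was 0.66 (SE 0.182, adjusted p = 0.0912), which edgeR did not call and DESeq2 did (0.67, adjusted p = 0.0107). The call against saline was lost in 7 of 14 leave-outs (pGal 1 and 2 and saline 1, 2 and 3 of batch 1, and pGal 1 and saline 2 of batch 2), with a log2 fold change between 0.52 and 0.64 and an adjusted p between 0.0557 and 0.0972. Without the B cell-rich libraries it was 0.74 (adjusted p = 0.00573). In prophylactic OT-I cells Cd226 averaged 146 ± 22 CPM with pGal, 145 ± 28 CPM with OVA and 120 ± 13 CPM with saline (SD, n = 5 each), and no difference was called. In the therapeutic experiment its group means lay between 101 and 121 CPM in OT-I cells and between 74.2 and 92.1 CPM in OT-II cells.

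Cd96, the third receptor of the axis, varied least. The 12 group means lay between 184 CPM (therapeutic OT-II saline) and 366 CPM (prophylactic OT-I pGal), a ratio of 1.99, and no pair of neighbouring groups in that order was free of overlap. In prophylactic OT-I cells its log2 fold change was 0.15 for pGal over OVA (95% interval -0.04 to 0.33), 0.09 for pGal over saline (-0.09 to 0.28) and -0.05 for OVA over saline (-0.23 to 0.13). In prophylactic OT-II cells it was 0.46 for pGal over saline (adjusted p = 0.157 by edgeR's quasi-likelihood test with Benjamini-Hochberg adjustment). That value was called without the B cell-rich libraries (0.52, adjusted p = 0.00529) and without OVA 2 of batch 2 alone (0.45, adjusted p = 0.0365), a library with 121 CPM where the other 3 OVA libraries had 253 to 263 CPM.

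The balance of Tigit over Cd226 transcripts is given as the log2 ratio of their counts, which is compared between groups only, since gene lengths differ. This ratio was described and not tested. It was highest in therapeutic OT-II cells given OVA, at -0.59 ± 0.65 (SD, n = 6), with -1.48 ± 1.19 for pGal (n = 8) and -2.55 ± 0.52 for saline (n = 6). The OVA libraries (-1.42 to 0.37) did not overlap the saline libraries (-3.21 to -1.65). In therapeutic OT-I cells it was -2.56 ± 0.73 with pGal (n = 8), -2.68 ± 0.64 with OVA (n = 8) and -2.73 ± 0.61 with saline (n = 6). Prophylactic OT-II cells had the lowest value with pGal, at -6.34 ± 0.88 (n = 5), with -3.98 ± 0.45 for OVA (n = 4) and -4.44 ± 1.04 for saline (n = 5). There the pGal libraries (-7.28 to -4.89) overlapped the saline libraries (-6.03 to -3.48) and not the OVA libraries (-4.45 to -3.44). Prophylactic OT-I cells had -4.91 ± 0.40 with pGal, -4.83 ± 0.35 with OVA and -5.71 ± 0.44 with saline (n = 5 each).

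Cd160 followed the cell type. The 6 OT-I groups averaged between 63.1 and 122 CPM and the 6 OT-II groups between 5.85 and 17.4 CPM. In prophylactic OT-I cells it was 79.8, 66.4 and 96.2 CPM in batch 1 and 124 and 158 CPM in batch 2 with pGal. With OVA it was 94.2, 163 and 113 CPM in batch 1 and 99.4 and 118 CPM in batch 2. With saline it was 74.6, 55.1 and 64.8 CPM in batch 1 and 56.3 and 64.7 CPM in batch 2. The OVA libraries were all above the saline libraries, and the pGal libraries overlapped them. The log2 fold change for OVA over saline was 0.92 (SE 0.198, adjusted p = 0.0134 by edgeR's quasi-likelihood test with Benjamini-Hochberg adjustment), with 0.95 (adjusted p = 0.0191) in batch 1 and 0.85 (adjusted p = 0.155) in batch 2. For pGal over saline it was 0.72 (adjusted p = 0.0612, not called), with 0.33 (adjusted p = 0.740) in batch 1 and 1.22 (adjusted p = 0.0277) in batch 2, and leaving out OVA 2 or pGal 2 of batch 1 made it a call (0.70, adjusted p = 0.0385; 0.85, adjusted p = 0.0306). DESeq2 also called it (0.71, adjusted p = 0.00861), and without both OT-I libraries holding Cd4 it was 0.86 (adjusted p = 0.0334). In therapeutic OT-I cells the value for OVA over saline was -0.28 (adjusted p = 0.482). Its difference between experiments, therapeutic minus prophylactic, was -1.14 (adjusted p = 0.0751), and leaving out OVA 1 of batch 2 made it -1.22 (adjusted p = 0.0419).

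The cell types were compared in saline, where no antigen was given with the treatment. In the prophylactic experiment Cd160 (log2 fold change 3.44, SE 0.353, adjusted p = 1.13e-07), Cd226 (1.00, SE 0.156, adjusted p = 3.70e-05) and Cd96 (0.74, SE 0.160, adjusted p = 0.00143) were higher in OT-I than in OT-II cells by edgeR's quasi-likelihood test with Benjamini-Hochberg adjustment. These are 3 of the 6 genes, where 18.1% of all genes were called. In the therapeutic experiment Cd160 (4.03, SE 0.554, adjusted p = 7.05e-07) and Havcr2 (3.89, SE 0.727, adjusted p = 1.55e-04) were higher in OT-I cells, 2 of the 6 genes, where 9.00% of all genes were called. Cd226 (0.46, adjusted p = 0.419) and Cd96 (0.42, adjusted p = 0.540) were not called there. Lag3 and Tigit were not called in either experiment, with Lag3 at 0.74 (adjusted p = 0.321) and Tigit at 0.41 (adjusted p = 0.665) in therapeutic cells, and Lag3 at -0.61 (adjusted p = 0.292) and Tigit at -0.45 (adjusted p = 0.496) in prophylactic cells. With all therapeutic libraries as labelled, Havcr2 had 2.11 (adjusted p = 0.736) and Cd160 had 1.92 (adjusted p = 0.658), so neither therapeutic call was left. The 5 calls were kept in every leave-out of a library from these fits that was run.

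Natural killer cells are known to carry Havcr2, Cd160, Cd226, Cd96 and Tigit. The 9 natural killer markers summed to between 148 and 340 CPM in therapeutic OT-I and between 11.3 and 62.6 CPM in therapeutic OT-II cells. In prophylactic saline libraries the sum was between 88.0 and 174 CPM in OT-I cells and between 18.8 and 66.2 CPM in OT-II cells. That list includes Eomes, known in both natural killer and effector CD8 T cells. Ncr1 stayed at or under 6.76 CPM in both. In therapeutic saline, Eomes, Klrb1c and Klre1 of the list were called higher in OT-I than in OT-II cells (9.00% of all genes called). Their log2 fold changes were 4.774, 3.053 and 3.025 (adjusted p = 1.55e-10, 3.11e-04 and 4.88e-04 by edgeR's quasi-likelihood test with Benjamini-Hochberg adjustment). In prophylactic saline Eomes alone of the list was called (4.124, 18.1% of all genes called). Ncr1 was at most 15.6 CPM in prophylactic OT-II pGal libraries and 63.1 CPM in OT-II OVA 2 of batch 2. The part of natural killer transcripts in the cell type differences was not tested.

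Genes around the receptors were counted from fixed lists. Of 16 ligands and partners, 13 to 15 were tested in each comparison. Pvr, which encodes CD155 itself, was transcribed in the T cells and was lower in OT-I than in OT-II cells in prophylactic saline (log2 fold change -2.70, adjusted p = 6.06e-07 by edgeR's quasi-likelihood test with Benjamini-Hochberg adjustment), at 9.57 ± 0.80 CPM in OT-I and 61.9 ± 7.5 CPM in OT-II cells (SD, n = 5 each). Crtam, a receptor of the nectin-like family, was higher in OT-I cells in both experiments (4.14, adjusted p = 4.02e-06; 5.17, adjusted p = 6.46e-07), where 18.1% and 9.00% of all genes were called. Btla, the other receptor for HVEM, had the smallest p of the list in therapeutic saline and was lower in OT-I cells (-1.47, adjusted p = 6.68e-08). With treatment, Crtam rose in prophylactic OT-I cells over saline (0.79 with pGal, adjusted p = 0.0288; 0.79 with OVA, adjusted p = 0.0176), Btla rose in prophylactic OT-II cells with pGal over saline (0.92, adjusted p = 0.0348), and Lgals3, which encodes galectin-3, fell in therapeutic OT-II cells with OVA relative to saline (-2.54, adjusted p = 0.0204). These 4 were the treatment calls in that list, in comparisons where 3.35%, 5.39%, 11.7% and 1.54% of all genes were called. The list's median log2 fold change was between -0.08 and 0.51 in the 12 treatment comparisons.

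Among 15 other inhibitory receptors, 4 rose in prophylactic OT-I cells with pGal over saline and 4 with OVA over saline (list medians 0.11 and 0.21; 3.35% and 5.39% of all genes called). Ctla4 (2.80, adjusted p = 0.00176) and Pdcd1 (2.05, adjusted p = 0.00512) led with pGal, and Pdcd1 (2.79, adjusted p = 3.31e-04) and Ctla4 (2.65, adjusted p = 7.78e-04) with OVA. In prophylactic OT-II cells Cd200 (1.65, adjusted p = 0.00465) and Ctla4 (1.91, adjusted p = 0.00794) rose with pGal over OVA, 2 of 15 (list median -0.02; 1.87% of all genes called), and Cd200, Ctla4 and Pdcd1 rose with pGal over saline, 3 of 15 (list median 0.64; 11.7% of all genes called). With OVA over saline Cd200 rose alone among the 15 (1.28, adjusted p = 0.0330; 0.163% of all genes called). In therapeutic OT-II cells Pdcd1, the gene of PD-1, rose with OVA over saline (1.68, adjusted p = 0.0170) beside Tigit, 1 of 15 (list median -0.27; 1.54% of all genes called). These values are from edgeR's quasi-likelihood test with Benjamini-Hochberg adjustment.

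Transcriptional regulators were a list of 21. In prophylactic OT-I cells 5 rose and 0 fell with pGal over saline (list median 0.29; 3.35% of all genes called) and 6 rose and 1 fell with OVA over saline (list median 0.23; 5.39% of all genes called), among them Tbx21, the gene of T-bet (1.42, adjusted p = 0.0152; 2.04, adjusted p = 7.93e-04). With pGal over saline in prophylactic OT-II cells 9 rose and 1 fell (list median 0.61; 11.7% of all genes called), led by Nfatc1 (0.99, adjusted p = 8.59e-05), Tox2 (2.93, adjusted p = 4.15e-04) and Maf (1.71, adjusted p = 0.00143). The one that fell was Prdm1, the gene of Blimp-1 (-2.14, adjusted p = 0.0109), named here after its value was seen. Eomes, the gene of a T-box factor, rose with OVA over saline in prophylactic OT-II cells (1.99, adjusted p = 0.0277, 0.163% of all genes called) and in therapeutic OT-I cells (0.62, adjusted p = 0.0437, 0.686% of all genes called), where 0 of the 6 receptor genes were called. It also rose with OVA over saline in prophylactic OT-I cells (0.84, adjusted p = 0.0234), where 3 of the 6 were called. With pGal over saline in prophylactic OT-II cells it rose too (1.79, adjusted p = 0.00212), where 2 of the 6 were called. In these last comparisons Eomes ranked 5 by p among the called regulators, outside the first 3. Its part in the receptor results was not tested. In therapeutic OT-II cells Tox2 (2.54, adjusted p = 0.00593) and Nfatc2 (0.85) rose and Id2 (-1.37, adjusted p = 0.0154) fell with OVA over saline, 3 of 21 (list median 0.17; 1.54% of all genes called). All are from edgeR's quasi-likelihood test with Benjamini-Hochberg adjustment. Of 13 signalling and shedding genes, 1 rose with pGal over saline and 3 with OVA over saline in prophylactic OT-I cells (3.35% and 5.39% of all genes called). In prophylactic OT-II cells 1 rose with pGal over OVA and 3 with pGal over saline (1.87% and 11.7% of all genes called), and 0 were called in the 6 therapeutic comparisons.

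Over the 12 groups the members did not share one pattern. Ordered by mean, Lag3 was highest in therapeutic OT-I pGal (23.3 CPM) and lowest in prophylactic OT-I saline (0.582 CPM), a ratio of 40.0, and 1 of the 11 neighbouring pairs did not overlap, prophylactic OT-I pGal (5.00 CPM) over prophylactic OT-II OVA (1.35 CPM). Tigit was highest in therapeutic OT-II OVA (66.9 CPM) and lowest in prophylactic OT-II pGal (1.27 CPM), a ratio of 52.8, with every neighbouring pair overlapping. Havcr2 was between 21.7 and 40.3 CPM in the 3 therapeutic OT-I groups and at most 3.45 CPM elsewhere. Cd160 had 1 step without overlap, prophylactic OT-I saline (63.1 CPM) over therapeutic OT-II OVA (17.4 CPM). Cd226 was highest in prophylactic OT-I pGal (146 CPM) and lowest in prophylactic OT-II OVA (58.5 CPM), a ratio of 2.50, with every neighbouring pair overlapping. As a description over 12 group means, which share tables and depth, Pearson's r between members was 0.85 for Cd226 and Cd160, 0.75 for Cd226 and Cd96, 0.68 for Lag3 and Havcr2, 0.68 for Havcr2 and Cd160, 0.62 for Lag3 and Tigit and -0.36 for Tigit and Cd96.

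Among 9543 genes, those most like each member were taken from the first 3 by Pearson's r of mean log2 CPM over the same 12 groups, again as a description. For Lag3 they were Tnip3 (0.957), Vsig10l (0.955) and Hmgb2 (0.948). Havcr2 was like Haspin (0.975) and Ccl3 (0.969), which encodes a chemokine of activated T cells. Tigit was most like Ndnf (0.937), Sdcbp2 (0.933) and S100a11 (0.920). Cd226 was most like Bcap29 (0.960), Cox8a (0.950) and Mrpl42 (0.941). Cd96 was like Psmd3 (0.925) and Vps25 (0.921). Cd160 was most like Cenpv (0.979), Pald1 (0.965) and Racgap1 (0.963), of which Racgap1 acts in cytokinesis.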

How the data were processed

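Estimated counts per protein-coding gene, as deposited by the authors, came from kallisto 0.46.1 run on GRCm38 with bcl2fastq before it, per the submitters' processing notes. How transcripts were summed to genes is not stated in the material used. The values are whole numbers and were used as deposited. SmartSeq v4 libraries were sequenced as paired 150-base reads, per the labels. Prophylactic cells were sorted into Trizol in 2 batches, and therapeutic cells into buffer and snap frozen, per the labels. Library totals in M counts were 33.5 to 68.2 (prophylactic OT-I), 21.2 to 62.1 (prophylactic OT-II), 24.7 to 62.5 (therapeutic OT-I) and 22.6 to 62.3 (therapeutic OT-II).

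The 21823 genes shared by the 3 tables were filtered with filterByExpr, scaled with TMM and tested with edgeR 4.0.16 (robust glmQLFit, glmQLFTest, R 4.3.3) per experiment and cell type, with a batch term in prophylactic fits. Interactions and the cell type contrast used joint fits. A call is a Benjamini-Hochberg adjusted p under 0.05 over all genes tested. Printed CPM share 1 TMM scaling over all 82 libraries, while fold changes use the scaling of each fit. The fits per experiment and cell type were also run on simulated counts, for pGal against OVA only, and the joint fits were not. Replicates are separate mice (therapeutic) or pools of 3 mice (prophylactic), per the labels, and OT-I and OT-II libraries may share mice. Alternatives were DESeq2 1.42.0, its size factors, no filter, a replicate block, single batches, and sets of libraries left out. The genes, gene lists and tests were chosen with earlier results of these data known. All 6 genes are named in every comparison, and of related lists the rule took up to 3 called genes with the smallest p, of which the text gives a part. Promoters are RefSeq entries, and entries for 4 of the 6 genes were used. Some of the genes most like a member are not reported here.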

Additional observations from a re-analysis of the deposited data

Results flagged for a closer look

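Of 72 sets of libraries (6 genes in 12 groups), 8 held 1 library that stood apart from the rest of its group. Chance alone gives about 1 in 20 only for normally distributed values. CPM values, some near 0, need not be normal, and the sets share libraries, so 8 of 72 cannot be read as an excess. Lag3 was 59.2 CPM in therapeutic OT-I pGal 1, where the other 7 libraries had 14.6 to 22.3 CPM, and 12.4 CPM in therapeutic OT-II OVA 2, where the others had 2.56 to 5.86 CPM. Havcr2 was 5.99 CPM in prophylactic OT-II pGal 3 of batch 1 (others 0 to 0.623 CPM) and 11.9 CPM in OT-II OVA 2 of batch 2 (others 0.290 to 0.888 CPM), both libraries rich in B cell transcripts. It was 55.2 CPM in therapeutic OT-I pGal 3 (others 16.6 to 30.8 CPM). Cd226 was 162 CPM in therapeutic OT-I pGal 8 (others 73.4 to 115 CPM). Cd96 was 121 CPM in prophylactic OT-II OVA 2 of batch 2 (others 253 to 263 CPM). Cd160 was 4.71 CPM in prophylactic OT-II saline 2 of batch 1 (others 5.98 to 6.30 CPM).

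Treatment differences that themselves differed between groups were, on the log2 scale, Lag3 for pGal over OVA (2.33) and for OVA over saline (-2.89) and Tigit for pGal over saline (-2.46), each OT-II minus OT-I in the prophylactic experiment. Therapeutic minus prophylactic, they were Lag3 in OT-I cells for pGal over saline (-2.15) and for OVA over saline (-2.76), and Tigit in OT-II cells for pGal over saline (2.72). In the therapeutic libraries left out for their coreceptor, Havcr2 was at least 18.4 CPM in those labelled OT-II, above the highest matching OT-II saline library (4.12 CPM).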

How the results depend on the processing

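Of 1054 fold changes under an alternative, 926 kept their direction and side of the threshold, 111 kept their direction but were no longer called, 17 became called and 0 reversed. Of 566 counts of called genes among the 6, 458 stayed within 1.5 times the reported count and 108 did not. In prophylactic OT-I cells the count for pGal over saline (1) was 3 with DESeq2, 2 in batch 2 alone and 2 without the OT-I libraries holding Cd4, and for OVA over saline (3) it was 0 in batch 2 alone and 2 in batch 1 alone, without the B cell-rich libraries, without the OT-I libraries holding Cd4 and with the replicate block. In prophylactic OT-II cells the count for pGal over OVA (1) was 3 with DESeq2, 2 without the B cell-rich libraries and 0 in batch 2 alone, without the filter and with the replicate block. For pGal over saline (2) it was 4 without the B cell-rich libraries and 0 in batch 2 alone. The interactions of 1 call each became 0 without the filter or without the OT-I libraries holding Cd4 for Lag3 in the prophylactic pGal over OVA and OVA over saline differences, the last also without the B cell-rich libraries, where the prophylactic pGal over saline difference had 2. As labelled, the therapeutic cell type contrast (2) had 0, and the 3 differences between experiments (1 each) had 0; that of OT-I pGal over saline was also 0 without the OT-I libraries holding Cd4, and that of OT-II pGal over saline was also 0 without the filter. Leaving out 1 library gave 1 to 2 (OT-I pGal over saline), 2 to 3 (OT-I OVA over saline), 0 to 1 (OT-II pGal over OVA), 1 to 3 (OT-II pGal over saline), 0 to 1 (each of the 3 prophylactic interactions, and the differences between experiments for pGal over saline in OT-I and OT-II) and 1 to 2 (OT-I OVA over saline between experiments). The cause was not tested.

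Libraries with the same number deviated together (correlation over 0.1) in 7 of 14 prophylactic and 14 of 19 therapeutic pairs across cell types. Not every pair did, and the labels do not say that these libraries share mice. Over the same-numbered pairs the median correlation was 0.12 (prophylactic) and 0.14 (therapeutic), against 0 for other pairs. Both cell types were transferred into every recipient, so same-numbered libraries may share mice. The main fits treated them as unpaired, and the fits with same-numbered OT-I and OT-II libraries as a block, given last, are the alternative. Across treatments within a cell type, median correlations of same-numbered libraries were 0 and -0.02 (prophylactic OT-I and OT-II). They were 0.01 and -0.02 in therapeutic OT-I and OT-II cells, and other pairs had 0.01 to 0.02. A block of libraries with the same number across treatments joins different treatments, so it does not model shared mice. With that block, Lag3 in prophylactic OT-II cells for pGal over OVA was 1.66 (adjusted p = 0.160 by edgeR's quasi-likelihood test). Tigit in prophylactic OT-I cells for OVA over saline was then 1.16 (adjusted p = 0.0690). The therapeutic OT-II count for OVA over saline (1) was 0, with Tigit at 2.25 (adjusted p = 0.0703). With same-numbered OT-I and OT-II libraries as a replicate block (14 prophylactic and 19 therapeutic pairs; chosen after seeing the data for the interactions), the saline cell type contrasts had 3 and 2 calls, as without it. The 3 prophylactic interactions (1 each) had 0, with Lag3 at 2.37 (adjusted p = 0.170) for pGal over OVA and -2.88 (adjusted p = 0.336) for OVA over saline and Tigit at -2.37 (adjusted p = 0.0721) for pGal over saline. The therapeutic OVA over saline interaction (0) had 1, Tigit at 2.40 (adjusted p = 0.0188). Havcr2 had 0 counts in 8 libraries.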
